A study of Mus musculus with 8 samples.

Results

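Nucleoporins and nuclear transport receptors were examined in mouse trophectoderm from dams on a high fat diet and from dams on a control diet. The 45 genes were found by symbol: nucleoporins (Nup and Nupl), importins (Kpna, Kpnb and Ipo), exportins (Xpo), transportins (Tnpo), Ran-binding proteins and the core genes of the Ran cycle. A gene counted if a probe set carried its symbol alone, and where a gene had several such probe sets the one with the highest mean over all arrays was kept. This choice was needed for Xpo7 only, since 46 probe sets matched the 45 genes. The series held 16015 probe sets with at least 1 gene symbol. Of 58 transport genes listed by role, 13 had no probe set of their own and were not analysed here. They were Ran, Rcc1, Ranbp3, Tpr, Nup35, Nup205, Nup210l, Nup62cl, Kpna2, Kpna5, Ipo8, Ranbp17 and Xpot.

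The high fat diet group had 4 pools and the control diet group had 4 pools, each read on 1 Affymetrix array. A pool held the trophectoderm of 5 blastocysts at embryonic day 4.5, cut from the abembryonic pole. Their mothers were C57BL/6J females that ate Teklad 06414 (high fat) or Lab Diet 5015 (control) between weaning and mating at 16 weeks of age, and the sires were C57BL/6J males. The labels call the pools biological replicates and speak of a dam in the singular for each, but do not name the dams or the embryos' sex, so the p-values below measure the spread between pools. In RNA from pooled tissue, fewer cells of a type and less RNA per cell cannot be told apart.

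The nuclear pore complex is the channel through which proteins and RNAs pass between nucleus and cytoplasm. Outer and inner rings form its frame, nucleoporins rich in phenylalanine-glycine (FG) repeats fill the channel, filaments extend into the cytoplasm and a basket extends into the nucleus. Importins carry cargo in and exportins carry it out. The small GTPase Ran sets the direction: its GTP form, made in the nucleus, releases cargo from importins and is needed for cargo to bind exportins. Preimplantation embryos start with maternal stores of these proteins and then make their own.

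All values are log2 signals after the authors' RMA processing. The background of an array was the level that 95% of its 836 probe sets for olfactory, vomeronasal, trace amine and taste receptors did not exceed. It was 6.17 to 6.66 on high fat diet arrays and 5.89 to 6.14 on control diet arrays. Signals were mostly higher with the high fat diet, with a median log2 change (high fat minus control) of +0.22 over all tested probe sets. The trophectoderm markers Cdx2, Eomes, Gata3, Krt18 and Tead4 lay above background on all 8 arrays, 5 of the 7 such markers measured. The mean deviation of the 7 was -0.48 to +0.14 in high fat diet pools and -0.09 to +0.21 in control diet pools. Gata3, a trophectoderm transcription factor, had 10.70, 10.40, 9.53 and 7.97 in high fat diet pools, against 11.23, 11.11, 11.42 and 10.81 in control diet pools. Every high fat diet pool lay below every control diet pool for Gata3, a pattern that 0.855% of all probe sets had. Its log2 change was -1.49 (limma adjusted p = 0.132), and the other 6 differed by -0.42 to +0.42 with overlapping diets. High fat diet replicate 3 stood apart, with 4674 probe sets above background against 5284 to 6582 on the others and a mean correlation with its fellow arrays of 0.832 (0.879 to 0.890 for the others). Control diet replicate 2 stood apart in the mean of the inner cell mass markers. The mean deviation of the 6 measured was -0.14 to +0.14 in high fat diet pools, against +1.44 in control diet replicate 2 and -0.86 to -0.20 in the other control diet pools. Tdgf1 read 10.33 in control diet replicate 2 against 4.55 to 4.92 in the other control diet pools, and Pou5f1 11.72 against 7.02 to 9.20. Nanog was highest in control diet replicate 1, and Fgf4 (7.38) was not raised in replicate 2. Between diets, 2 of the 6 changed below 0. Fgf4 changed by +0.75 (limma adjusted p = 0.115), with every high fat diet pool above every control diet pool, as in 25.4% of all probe sets. Klf4 changed by +0.46 with overlapping diets. Averaged by list, markers of other tissues lay near the general shift of the arrays. The median deviation of all tested probe sets was +0.02 to +0.27 in high fat diet pools and -0.14 to -0.03 in control diet pools. The mean marker deviation ran from +0.04 to +0.31 in high fat diet pools and -0.22 to 0.0005 in control diet pools for 5 primitive endoderm genes, and for 7 uterine genes from +0.01 to +0.39 in high fat diet pools and -0.27 to -0.08 in control diet pools. For 3 blood genes it ran from +0.04 to +0.33 in high fat diet pools and -0.21 to -0.14 in control diet pools. The median changes of these lists were +0.24, +0.28 and +0.36, against +0.22 over all probe sets. The 3 blood genes, among them Ptprc, and 5 of the 7 uterine genes lay above background on no array. The remaining 2 uterine genes, Col1a1 (+0.55) and Col1a2 (+0.45), lay above background on all 8 arrays. For both, every high fat diet pool lay above every control diet pool, a pattern that 25.4% of all probe sets had. Vim of the uterine list and the 3 blood genes, all below background, had this pattern too. It was found in 42.9% of the uterine genes and 100% of the blood genes. The part of these markers in the results below was not tested.

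Transport genes tended to sit low in high fat diet pools relative to the other probe sets. Of the 45 members, 26 (57.8%) had a lower mean with the high fat diet, while 21.3% of all tested probe sets did. The median log2 change of the members was -0.22, against +0.22 over all tested probe sets. The change lay below that overall median in 39 of 45 members, a position that 50% of probe sets have by construction. No member passed the limma test across all probe sets at an adjusted p of 0.05, in either direction. The share of all probe sets that passed was 0.00624% in the lower direction and 0% in the higher. At an unadjusted limma p under 0.05, 6 members (13.3%) read lower, against 1.79% of all probe sets. They were Nup50, Kpna3, Xpo5, Tnpo3, Nup160 and Nup153. At the same p, 2 members (4.44%) read higher, Nup210 and Kpna7, against 30.1% of all probe sets. Every high fat diet pool lay below every control diet pool for 3 members, Nup50, Kpna3 and Xpo5, a pattern that 0.855% of all probe sets had. Every high fat diet pool lay above every control diet pool for Nup210 and Kpna7, a pattern that 25.4% of all probe sets had. The list was proposed with the values of Nup50 and Kpna3 known, so these counts are a description of it.

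The count of members below 0 depended on the scaling between arrays. Centring each array on its median put 37 of 45 members below 0 (43.7% of all probe sets), quantile normalization put 31 there (33.2%) and cyclic loess put 38 there (50.2%). The members' median was -0.40 with centring (+0.03 over all probe sets), -0.19 with quantiles (+0.09) and -0.43 with loess (-0.0009). Without high fat diet replicate 3, 25 members lay below 0 (23.0% of all probe sets), 34 lay below the overall median, and the members' median was -0.07 against +0.16. The members at an unadjusted p under 0.05 in the lower direction were then 3, Nup50, Kpna3 and Xpo5 (1.15% of all probe sets). Without control diet replicate 2 the members' median was -0.06, against +0.22 over all probe sets.

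**Figure D1:**
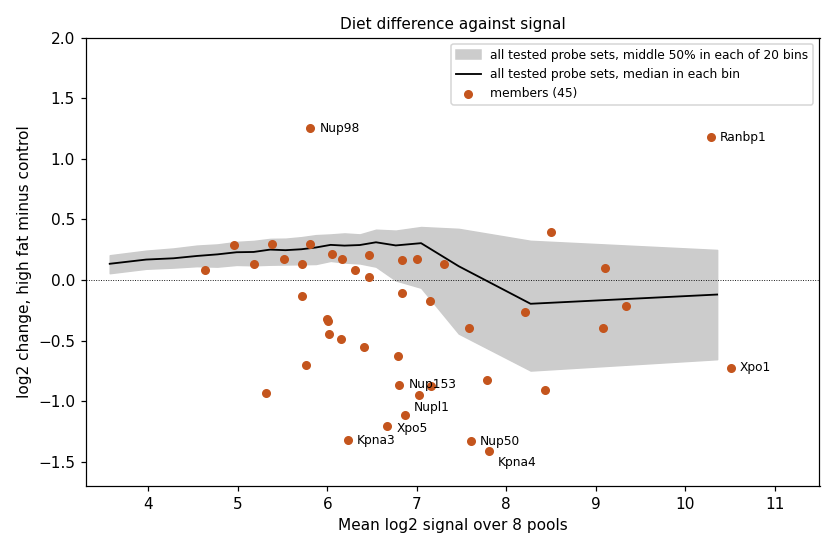
Log2 change (high fat diet minus control diet, vertical axis) against the mean log2 signal over 8 pools (horizontal axis). Points are the 45 members, the line is the median of all tested probe sets in 20 bins of equal size and the grey band is the middle 50% of each bin. Of members with a signal between 6 and 8, most lie below the band, among them Kpna3, Xpo5 and Nup50, while Ranbp1 and Nup98 lie above it.

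The gap between members and other probe sets differed along the signal range. Of the members, 27 had a mean signal from the median of all probe sets up to the brightest 10%. Of these, 17 (63.0%) had a change below 0, against 22.2% of 6406 probe sets of that range, and their median change was -0.34 against +0.28. In the brightest 10%, 6 of 9 members (66.7%) had a change below 0, against 60.1% of 1602 probe sets, with a median of -0.27 against -0.16. Below the median signal, 3 of 9 members had a change below 0, against 12.8% of probe sets, with a median of +0.13 against +0.20. Pools of the same diet differed more in these genes than in most. The SD within a diet was over 0.5 log2 units for 21 of 45 members (46.7%) and for 19.4% of all probe sets. In the upper part of the signal range, from the median on, it was over 0.5 for 55.6% of members and 31.7% of probe sets.

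**Figure D2:**
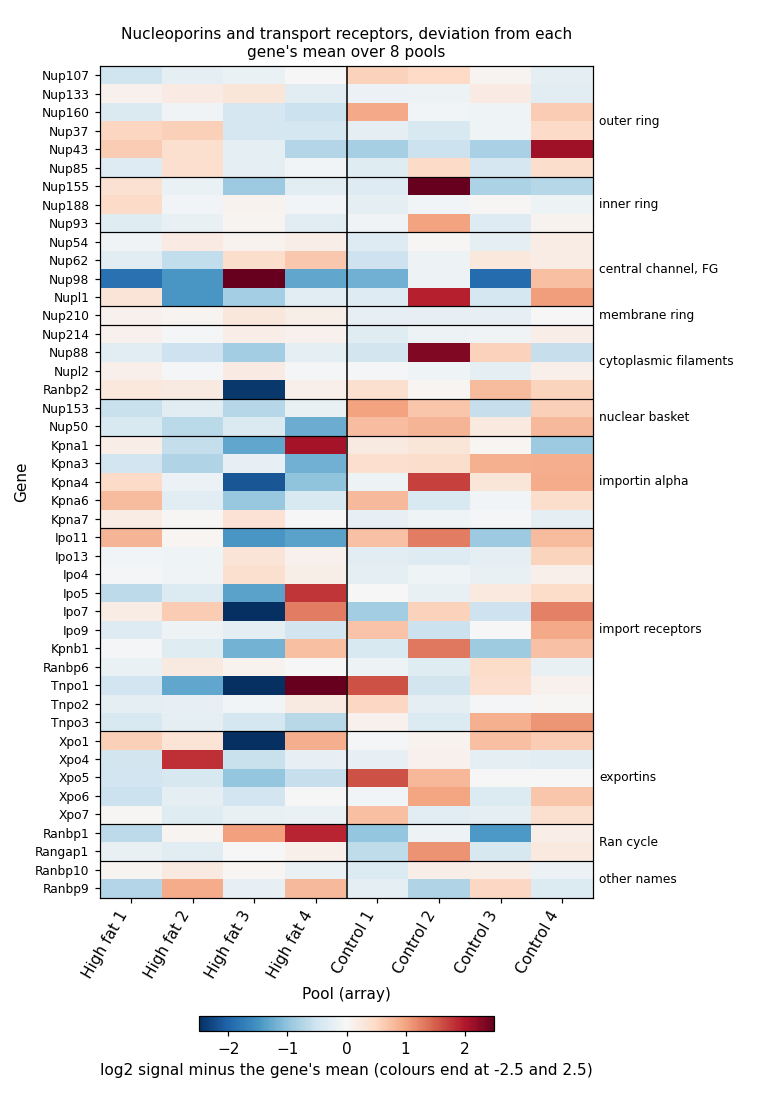
Deviation of each of the 45 members from its own mean over 8 pools (colour, log2 units, ending at -2.5 and 2.5), with high fat diet pools left of the line and control diet pools right of it, and genes grouped by role. Nup50 and Kpna3 are lower in all 4 high fat diet pools, and many single dark cells mark pools that differ from the rest of their diet, such as high fat diet replicate 3 for Xpo1, Ranbp2, Ipo7 and Tnpo1.

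Both measured nucleoporins of the nuclear basket read lower with the high fat diet. Nup50 is a mobile basket protein that binds importin alpha and helps it release cargo in the nucleus. Its log2 signal was 7.23, 6.93, 7.25 and 6.36 in high fat diet pools 1 to 4, against 8.37, 8.46, 7.84 and 8.42 in control diet pools 1 to 4. All high fat diet pools lay below all control diet pools, and the highest high fat diet value was 7.25. The means were 6.94 ± 0.41 with the high fat diet and 8.27 ± 0.29 with the control diet (SD, n = 4 each), a log2 change of -1.33 with an SE of 0.23 and a 95% interval from -1.87 to -0.79. Limma across all probe sets gave an adjusted p of 0.115, and over the 18 settings run the adjusted p of Nup50 lay between 0.0743 and 0.298. The mean was 2.52-fold lower with the high fat diet, which takes in high fat diet replicate 4, the 1 pool in which Nup50 was not above background. Nup153 is an FG nucleoporin that anchors the basket. It had 6.25, 6.53, 6.09 and 6.61 in high fat diet pools, against 7.81, 7.49, 6.23 and 7.41 in control diet pools. Control diet replicate 3 lay among the high fat diet values and the other control diet pools above them all. The change of Nup153 was -0.87 (95% interval -1.64 to -0.10, limma adjusted p = 0.135). With an array left out it ran from -1.20 (without control diet replicate 3) to -0.67 (without control diet replicate 1). Nup153 was not above background in high fat diet replicate 3, so the change is approximate.

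The promoters of Nup50 and Xpo5 are shown because RefSeq gave windows for these members, whose high fat diet pools all lay below the control diet pools. They were chosen after their values were seen. Each stretch is the 250 bases before the annotated start, 5′ to 3′ on the plus strand of GRCm38.p6, at chr15:84923178-84923427 for Nup50 and chr17:46202561-46202810 for Xpo5. Capitals mark a 10-base palindrome, the known consensus site of the transcription factor NRF1.
Nup50: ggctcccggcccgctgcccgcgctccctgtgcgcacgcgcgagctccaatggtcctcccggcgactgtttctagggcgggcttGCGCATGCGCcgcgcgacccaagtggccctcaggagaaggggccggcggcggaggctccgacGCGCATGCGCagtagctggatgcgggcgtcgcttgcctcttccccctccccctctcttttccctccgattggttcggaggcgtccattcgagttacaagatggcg
Xpo5: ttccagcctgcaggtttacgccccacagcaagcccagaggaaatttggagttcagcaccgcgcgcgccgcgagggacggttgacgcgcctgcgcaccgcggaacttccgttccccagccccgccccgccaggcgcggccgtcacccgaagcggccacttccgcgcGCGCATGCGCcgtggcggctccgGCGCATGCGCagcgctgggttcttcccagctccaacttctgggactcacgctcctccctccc
Both stretches held the palindrome 2 times, beginning 167 and 105 bases before the start of Nup50 and 85 and 62 bases before that of Xpo5. Windows of 300 bases were found for 37 of the 45 members (Kpna3 was among the 8 without), and 4 of these (10.8%) held the palindrome on either strand, against 1.71% of 11869 tested genes and 1.07% of 27025 genes with a window. The remaining members with it were Nup107 (log2 change -0.45) and Nup62 (+0.10). The GC box GGGCGG stood in the windows of 26 members (70.3%, against 56.9% of tested genes), CCAAT in 20 (54.1%, against 42.4%) and TATAAA in 5 (13.5%, against 13.2%), each read on both strands. None of the 4 motifs contains another. A match describes the sequence and shows no binding.

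**Figure D3:**
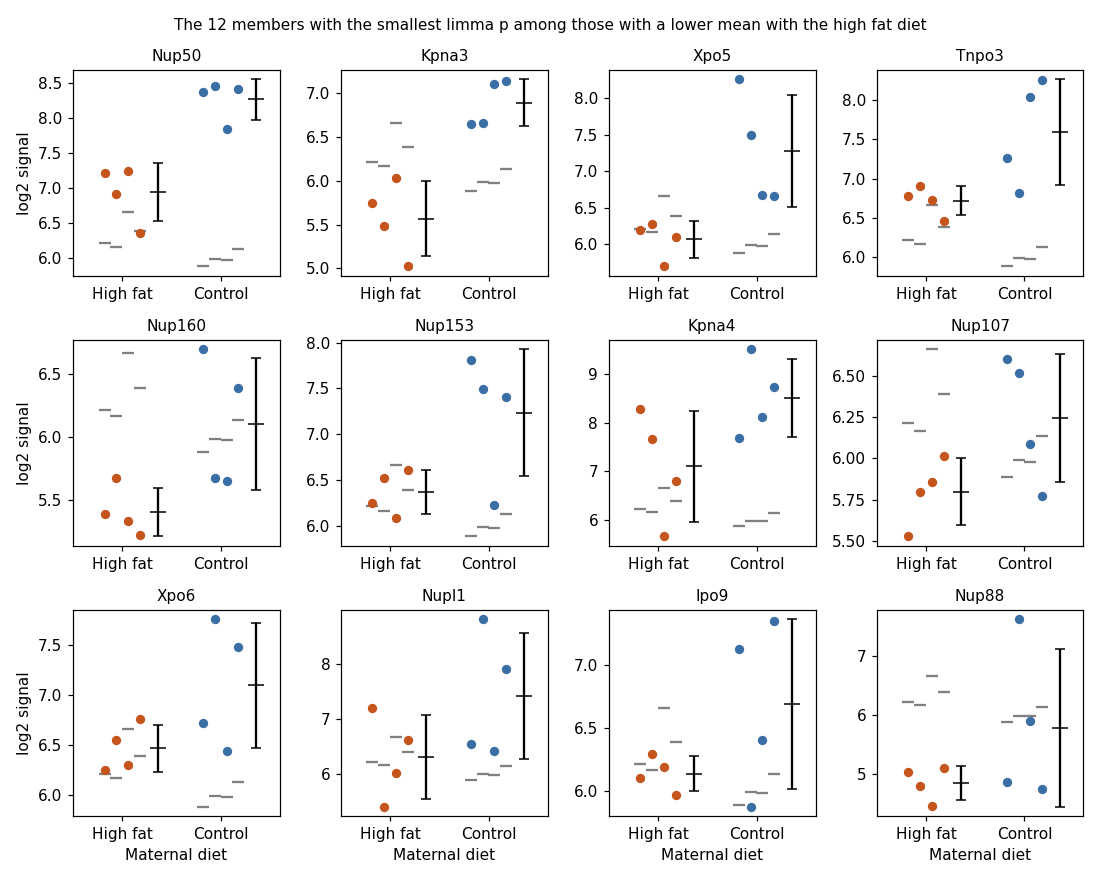
Log2 signal (vertical axis of each panel, scaled to the gene) for the 12 members with the smallest limma p among those lower with the high fat diet. Coloured points are pools 1 to 4 of each diet from left to right, grey dashes are the background of the same array, and black marks are the mean ± SD (n = 4). The diets do not overlap for Nup50, Kpna3 and Xpo5, and they overlap for the other 9 genes shown.

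Among the importin alpha adaptors, which join cargo with a classical nuclear localization signal to importin beta, Kpna3 and Kpna4 had the largest differences. Kpna3 had 5.74, 5.48, 6.03 and 5.02 in high fat diet pools, against 6.65, 6.67, 7.11 and 7.14 in control diet pools. The groups did not overlap. Kpna3 lay above background on 0 of 4 high fat diet arrays and on all 4 control diet arrays, so the measured log2 change of -1.32 (SE 0.23, limma adjusted p = 0.115) is not exact. It was at least 1.45-fold lower against the background percentile, for the group means, and no bound was reached against the 99th percentile. Kpna4, the closest relative of Kpna3, had 8.29, 7.66, 5.66 and 6.80 in high fat diet pools, against 7.68, 9.52, 8.12 and 8.73 in control diet pools. High fat diet replicate 1 lay within the control diet range and the other high fat diet pools below it. Its change was -1.41 (95% interval -2.85 to 0.03, limma adjusted p = 0.162), and it was -0.93 leaving out high fat diet replicate 3. Kpna4 was not above background in that pool, so the change is approximate. Taking the background in place of any lower high fat diet value, Kpna4 was 2.23-fold lower, and 1.85-fold lower against the 99th percentile.

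Kpna6 and Kpna1 overlapped between diets. Kpna6, needed from the egg for mouse embryos to pass the earliest cleavages, averaged 7.39 ± 0.73 with the high fat diet and 7.79 ± 0.53 with the control diet (SD, n = 4 each). Kpna1 had 7.17, 6.41, 5.70 and 9.08 in high fat diet pools, against 7.22, 7.30, 7.05 and 6.10 in control diet pools. The lowest and the highest value of Kpna1 were both from the high fat diet. Its change of +0.17 (95% interval -1.45 to 1.79) was -0.49 without high fat diet replicate 4 and +0.64 without high fat diet replicate 3. Kpna7, known from oocytes and early embryos, differed by +0.29 but lay above background on no array, so no level is read from it.

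Exportins read lower with the high fat diet in 4 of 5 measured members. Xpo5, the exporter of microRNA precursors, had 6.20, 6.27, 5.70 and 6.10 in high fat diet pools, against 8.26, 7.50, 6.67 and 6.67 in control diet pools. The groups did not overlap, with control diet replicates 3 and 4 closest to the high fat diet pools. The means were 6.07 ± 0.26 with the high fat diet and 7.28 ± 0.77 with the control diet (SD, n = 4 each), a change of -1.21 (95% interval -2.06 to -0.36, limma adjusted p = 0.117). It lay above background on 1 of 4 high fat diet arrays and on all control diet arrays, so this change is approximate. Taking the background in place of any lower high fat diet value, Xpo5 was 1.85-fold lower, and 1.11-fold lower against the 99th percentile. Over the 18 settings the change of Xpo5 lay between -1.49 and -0.88.

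Xpo1, the exporter of proteins with leucine-rich export signals, had 11.10, 10.86, 7.22 and 11.41 in high fat diet pools, against 10.49, 10.59, 11.26 and 11.14 in control diet pools. Only high fat diet replicate 3 lay outside the span of the other 7 pools by more than 1 log2 unit. The change of -0.72 became +0.25 without it. Xpo6, which exports actin bound to profilin, averaged 6.47 ± 0.24 with the high fat diet and 7.10 ± 0.62 with the control diet (SD, n = 4 each, limma adjusted p = 0.186). Xpo7 differed by -0.32 and lay above background on 0 of 4 high fat diet arrays and 2 of 4 control diet arrays. Its second probe set, at 3.41 to 4.08, lay above background nowhere and differed by +0.19. Xpo4 had 7.64 in high fat diet replicate 2 and 5.25 to 5.60 in the other high fat diet pools, against 5.54 to 5.92 in control diet pools, and its change of +0.30 was -0.26 without that pool.

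Import receptors of the importin beta family lay below the overall median change in 11 of 11 cases, and 8 lay below 0. Tnpo3, which imports serine-arginine splicing factors, had 6.78, 6.91, 6.73 and 6.47 in high fat diet pools, against 7.27, 6.81, 8.04 and 8.26 in control diet pools. Control diet replicate 2 lay within the high fat diet range and the others above it. Tnpo3 lay above background on all 8 arrays, and its change was -0.87 (95% interval -1.61 to -0.14, limma adjusted p = 0.127). Kpnb1, importin beta itself, had 9.03, 8.77, 7.90 and 9.83 in high fat diet pools, against 8.71, 10.41, 8.19 and 9.82 in control diet pools. The diets overlapped over nearly their whole range, with a change of -0.40 (95% interval -1.74 to 0.94). This change was -0.07 without high fat diet replicate 3, -0.03 without control diet replicate 2 and -0.76 without control diet replicate 3.

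Several import receptors turned on single pools. Ipo7, a carrier of ribosomal proteins and histone H1, had 9.52, 9.97, 6.82 and 10.61 in high fat diet pools, against 8.46, 9.91, 8.82 and 10.60 in control diet pools. Its change of -0.22 was +0.59 without high fat diet replicate 3, +0.17 without control diet replicate 4 and -0.68 without high fat diet replicate 4. Tnpo1, which imports many RNA-binding proteins, had both its lowest value (5.29) and its highest (10.42) in high fat diet pools, replicates 3 and 4, against 7.32 to 9.37 in control diet pools. The lowest value was not above background. Its change of -0.82 was -0.13 without high fat diet replicate 3 and -1.84 without high fat diet replicate 4. Ipo5 had 6.87 and 9.99 in the same high fat diet pools, against 8.02 to 8.66 in control diet pools. Ipo11 had the largest change of the family, -0.95 (limma adjusted p = 0.316), with 5.57 to 7.88 in high fat diet pools and 6.13 to 8.30 in control diet pools. It lay above background on 2 of 4 high fat diet arrays and all control diet arrays. Ipo9, a carrier of histones H2A and H2B, averaged 6.14 ± 0.14 with the high fat diet and 6.69 ± 0.68 with the control diet (SD, n = 4 each). Ipo9 lay above background on 1 of 4 high fat diet arrays and 3 of 4 control diet arrays, so these means are approximate. Ipo4 averaged 6.57 ± 0.22 with the high fat diet and 6.36 ± 0.16 with the control diet (SD, n = 4 each). The Ipo4 difference was -0.08 with cyclic loess. Ipo13 (+0.13), Tnpo2 (-0.13) and Ranbp6 (+0.08) lay above background on at most 1 array each.

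The outer ring is the Y-shaped complex that also seeds pore assembly. Its 6 members had 3 changes below 0 and 3 above, and all 6 lay below the median change of all probe sets. Seh1l (-0.95) and Sec13 (+0.86), outer ring subunits outside the naming pattern, had overlapping diets. Sec13 lay above that median, and above background on all 8 arrays. Nup160 had 5.39, 5.68, 5.33 and 5.22 in high fat diet pools, against 6.70, 5.68, 5.66 and 6.39 in control diet pools. Control diet replicates 2 and 3 lay at the top of the high fat diet range. Nup160 was above background on 0 of 4 high fat diet arrays and 2 of 4 control diet arrays, so its change of -0.70 (limma adjusted p = 0.128) gives no fold. Nup107 stood likewise above background on 0 of 4 high fat diet arrays, and on 3 of 4 control diet arrays, with a change of -0.45. Nup133 was above background nowhere, and its change of +0.17 turned to -0.01 with centring and -0.08 with cyclic loess. Nup37 (+0.13), Nup43 (+0.02) and Nup85 (-0.11) overlapped between diets, and Nup43 had 8.59 in control diet replicate 4 against 5.64 to 5.94 in the other control diet pools.

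In the inner ring, which ties the frame to the membrane and the channel, Nup155 had 5.25 to 6.54 in high fat diet pools, against 8.95 in control diet replicate 2 and 5.36 to 5.82 in the other control diet pools. Its change of -0.48 was +0.37 without control diet replicate 2. Nup93 differed by -0.34 and Nup188 by +0.22, the Nup188 difference turning to -0.06 with cyclic loess. None of these 3 lay above background on more than 2 arrays. Among the FG nucleoporins of the channel, Nup62 lay above background on all arrays and had 8.81, 8.50, 9.54 and 9.77 in high fat diet pools, against 8.59, 8.98, 9.36 and 9.28 in control diet pools. Its diets overlapped, and the 95% interval of the change ran from -0.63 to 0.83 around +0.10, with a change of -0.08 after centring. Its partner Nupl1, now often called Nup58, had 7.19, 5.41, 6.01 and 6.61 in high fat diet pools, against 6.54, 8.81, 6.42 and 7.90 in control diet pools. Nupl1 lay above background on 2 of 4 high fat diet arrays and on all control diet arrays, and on the same reckoning it was 1.69-fold lower (1.19-fold against the 99th percentile). Its measured change was -1.11 (limma adjusted p = 0.231), and it was -0.65 leaving out control diet replicate 2. Nup54, the other partner of Nup62, differed by +0.17 with overlapping diets.

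Nup98, an FG nucleoporin whose precursor also yields a subunit of the outer ring, had 3.94, 4.35, 12.93 and 4.52 in high fat diet pools, against 4.60, 5.68, 3.89 and 6.55 in control diet pools. High fat diet replicate 3 was 6.38 log2 units above the next highest pool. Nup98 lay above background on that array and on control diet replicate 4 only. The change of +1.25 had a 95% interval from -3.39 to 5.90, and was -0.91 without high fat diet replicate 3.

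On the cytoplasmic face, Ranbp2, the large filament protein also called Nup358, had 8.69, 8.66, 6.03 and 8.56 in high fat diet pools, against 8.85, 8.49, 9.23 and 9.00 in control diet pools. High fat diet replicate 3 read 2.46 log2 units below the next lowest pool, and the change of -0.91 was -0.25 without it. Ranbp2 was not above background in that pool, so neither the gap nor the change of -0.91 is exact. Nup214, which docks export complexes, had 6.95, 6.78, 7.01 and 6.94 in high fat diet pools, against 6.54, 6.70, 6.75 and 7.01 in control diet pools. Its change of +0.17 turned to -0.02 with centring and -0.11 with cyclic loess. Nup88, the partner of Nup214, had 4.46 to 5.09 in high fat diet pools and 4.74 to 7.63 in control diet pools. Only control diet replicate 2 was above background, and the change of -0.94 was -0.32 without it. Nupl2 (+0.13) and the membrane ring protein Nup210 lay above background on no array. Nup210 read at 5.53 ± 0.10 with the high fat diet and 5.23 ± 0.10 with the control diet (SD, n = 4 each), +0.08 above the overall median change.

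**Figure D4:**
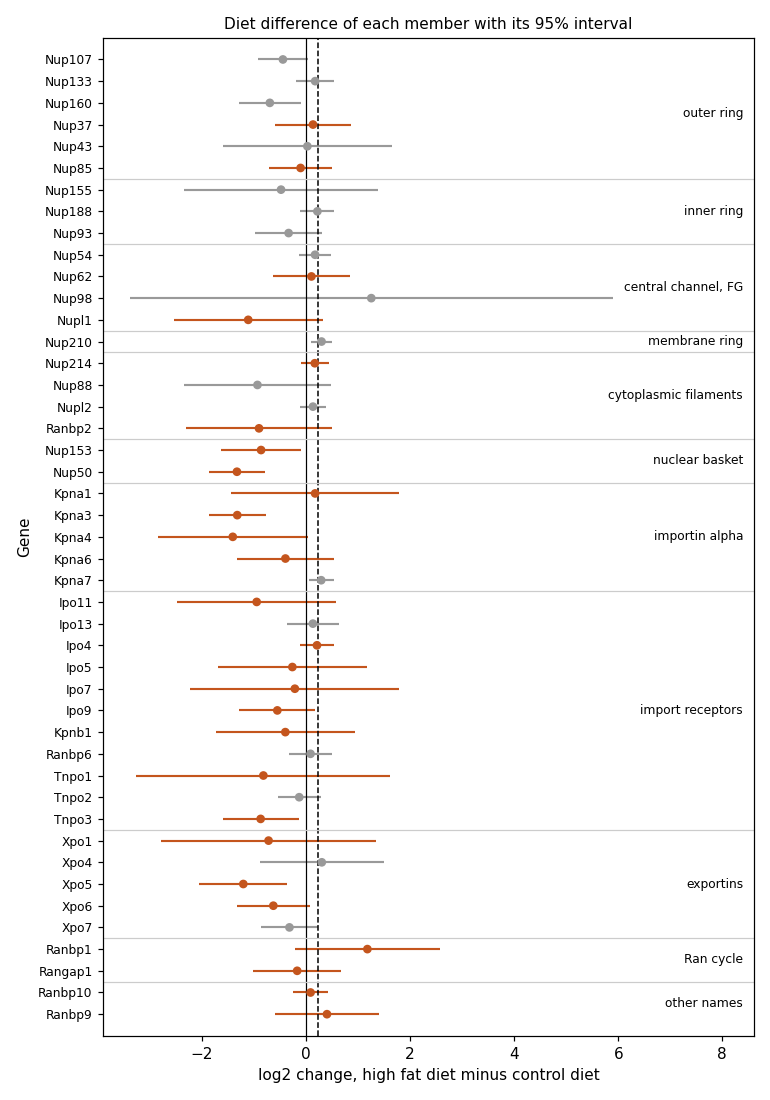
Log2 change of each member (high fat diet minus control diet, points) with its 95% interval from limma (lines), grouped by role. The solid line marks 0 and the dashed line the median of all tested probe sets, +0.22. Members above background on at least 4 of 8 arrays are orange and the others grey. The intervals of Nup50, Nup153, Kpna3, Tnpo3, Xpo5 and Nup160 lie below 0, and that of Nup98 spans the widest range. Those of Nup210 and Kpna7, above background on no array, lie above 0.

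Of the Ran cycle, Ranbp1 and Rangap1 were measured. Ranbp1, which helps Rangap1 to trigger GTP hydrolysis by Ran in the cytoplasm, had 9.64, 10.34, 11.31 and 12.20 in high fat diet pools, against 9.32, 10.16, 8.85 and 10.44 in control diet pools. High fat diet replicates 3 and 4 lay above all control diet pools, and the other two within their range. Its change of +1.18 (SE 0.60, 95% interval -0.21 to 2.57, limma adjusted p = 0.203) was the highest among the 12 members above background on all arrays, and it lay between +0.74 and +1.59 over the settings run. Rangap1 had 6.96, 6.86, 7.15 and 7.29 in high fat diet pools, against 6.53, 8.28, 6.74 and 7.40 in control diet pools. Its change of -0.17 was +0.18 without control diet replicate 2. Ranbp9 (+0.40) and Ranbp10 (+0.08), which carry the name but act in a ubiquitin ligase, overlapped between diets, and the Ranbp10 difference was negative with all 3 scalings run.

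Single pools held many of the extreme values. High fat diet replicate 3 had the lowest value of all 8 pools for 15 of 45 members (33.3%), against 6.09% of all tested probe sets. Among members at or above the median signal it was 14 of 36 (38.9%), against 10.5% of such probe sets. For Xpo1, Ranbp2, Ipo7, Tnpo1 and Kpna4 it lay more than 1 log2 unit below the next lowest pool. The Ranbp2, Tnpo1 and Kpna4 values there were not above background. The same array had the highest value for 49.8% of all probe sets and for 6 members. Control diet replicate 2 had the highest value for 11 members (24.4%), against 5.32% of all probe sets, among them Nup155, Nup88, Nupl1, Kpnb1 and Kpna4. This was the pool with the raised mean of inner cell mass markers and the highest Tdgf1 and Pou5f1. The part of those markers in these values was not tested. The changes of Nup50 and Kpna3 were -1.43 and -1.48 without high fat diet replicate 3, and -1.27 and -1.40 without control diet replicate 2. Both genes were lowest in high fat diet replicate 4, and their changes were smallest without that pool, at -1.14 each.

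**Figure D5:**
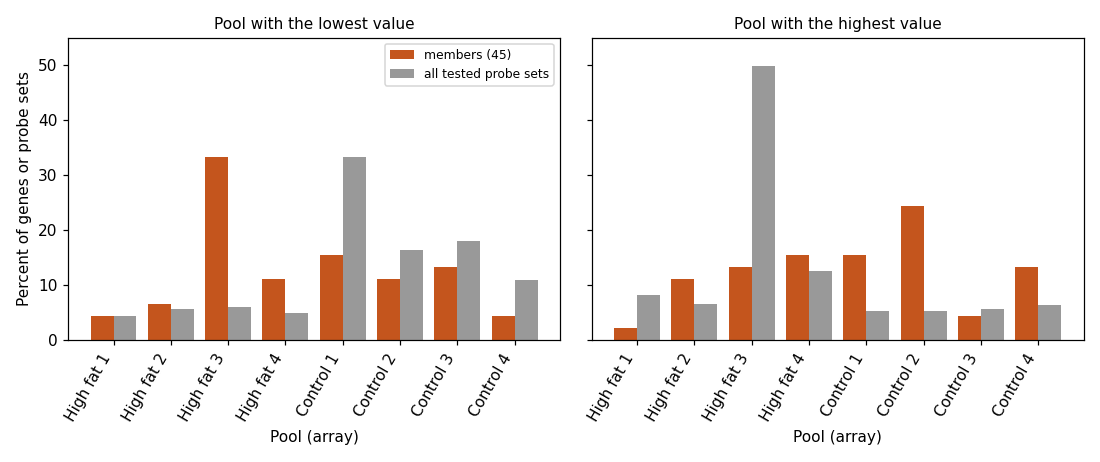
Percent of members (orange) and of all tested probe sets (grey) whose lowest (left panel) or highest (right panel) value fell in each pool, with high fat diet pools left of control diet pools. High fat diet replicate 3 holds the lowest value for 33.3% of members and the highest for 49.8% of all probe sets.

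Other genes of the pathway, listed by function apart from the naming pattern, had medians between that of the members and that of all probe sets. The 8 pore components outside the pattern had a median change of +0.04, with 4 below 0. The mRNA export factor Rae1 read at 7.03 ± 0.15 with the high fat diet and 6.76 ± 0.06 with the control diet (SD, n = 4 each). The membrane nucleoporin Ndc1 read at 5.71 ± 0.15 with the high fat diet and 5.97 ± 0.10 with the control diet (SD, n = 4 each). Of 3 further transport factors, Cse1l, the exporter that returns importin alpha to the cytoplasm, differed by -1.56 (limma adjusted p = 0.158), with 6.46 ± 1.01 in high fat diet pools and 8.02 ± 1.13 in control diet pools (SD, n = 4 each). Ranbp3l, a relative of Ranbp3, differed by +0.16 and was above background nowhere. The 13 measured mRNA export genes had a median of +0.05, with 6 below 0. The helicase Ddx19b differed by -0.79, above background on 0 of 4 high fat diet arrays and 1 of 4 control diet arrays, and Pcid2 by +0.19 with no array above background. The 11 lamina and envelope genes had a median of +0.11, with 4 below 0. The lamin Lmnb2 differed by +0.26, and Tor1a, an ATPase of the envelope lumen, by +0.33 with overlapping diets. Every high fat diet pool lay above every control diet pool for Lmnb2 and Rae1, a pattern that 25.4% of all probe sets had. In these lists 0 genes passed limma adjusted over all probe sets. At an unadjusted p under 0.05 Ndc1 read lower (1.79% of all probe sets did) and Rae1 and Lmnb2 higher (30.1% did), and the change of +0.26 for both compares with +0.22 over all probe sets. Ndc1 lay above background on 0 of 4 high fat diet arrays and 1 of 4 control diet arrays.

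The 13 members outside the rule for named genes had changes between -0.82 and +0.17, 7 below 0 and 6 above, with limma adjusted p from 0.350 to 0.981.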

How the data were processed

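The authors deposited log2 values for 8 arrays, made with RMA and Partek per the submitters' processing notes. Versions, build and settings were not stated there. Per the labels' protocols, RNA was extracted with the PicoPure kit and amplified in sequence with the Ovation PICO WTA and TransPlex WTA kits. The table held 23332 probe sets, of which 14996 had 1 platform symbol, 1019 several and 7317 none. No gene was named from several, and 0 columns belonged to other samples.

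Diets were compared on the 16015 named probe sets with limma 3.58.1 in R 4.3.3 (lmFit, eBayes, two-sided, Benjamini-Hochberg, threshold 0.05) without a filter or block. The test was checked on simulated arrays. Receptor probe sets (Olfr, Vmn, Taar, Tas) gave each array's background. The number of arrays limits the precision.

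Genes named are the 12 members with the smallest p below 0, 6 above 0, those fixed by name and the extremes of each role, and for 2 genes per other list. Those outside this rule (Nup37, Nup43, Nup85, Nup93, Nup54, Nupl2, Ipo5, Ipo7, Ipo13, Tnpo1, Tnpo2, Ranbp6, Xpo7, Seh1l, Sec13, Gata3 and the other markers) were chosen after their values were seen. The members, lists and settings were chosen with earlier results of these data known. Alternatives changed scaling, filter, probe sets, variance model, weights, block and background, and left out each array. Promoters are RefSeq windows of GRCm38.p6. Coordinates of probe sets are not used here.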

Additional observations from a re-analysis of the deposited data

Results flagged for a closer look

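With 4 pools per diet, 1 pool lay far from the other 3 in 9 of 90 sets of values (45 members, each diet), by a gap past Dixon's 95% limit. Chance gives about 1 in 20 such sets. In the high fat diet, Nup98 had 12.93 in replicate 3 against 3.94 to 4.52 in the others, Xpo4 had 7.64 in replicate 2 against 5.25 to 5.60, Ranbp2 had 6.03 in replicate 3 against 8.56 to 8.69, and Xpo1 had 7.22 in replicate 3 against 10.86 to 11.41. In the control diet, Nup43 had 8.59 in replicate 4 against 5.64 to 5.94, Nup155 had 8.95 in replicate 2 against 5.36 to 5.82, and Nup50 had 7.84 in replicate 3 against 8.37 to 8.46. Nup210 had 5.39 in control diet replicate 4 against 5.18 in each of the others, and Ipo13 had 6.27 in that pool against 5.39 to 5.49. The Nup210 values lay below background, as did the Ranbp2 value of high fat diet replicate 3.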

How the results depend on the processing

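In all 18 settings 0 members passed the adjusted limma threshold, with 3 to 10 members at an unadjusted p under 0.05 in the lower direction (1.15% to 5.24% of all probe sets, the highest of both with cyclic loess). Nup50, Kpna3 and Xpo5 were among these in every setting. Their groups stayed separated with all 3 scalings run. The remaining settings left their values unchanged or removed an array, so they could not make the groups overlap. Members with separated groups in the lower direction numbered 5 with centring (2.62% of all probe sets), 6 with cyclic loess (3.33%) and 3 to 6 with an array left out (1.2% to 1.79%), against 3 in the report (0.855%). The median change of the members was -0.40 with centring, -0.43 with cyclic loess and -0.34 to -0.0598 with an array left out, and relative to all probe sets -0.56 to -0.24 with an array left out. Members below 0 numbered 25 to 29 with an array left out. Members above background on all arrays numbered 12, and 4 against the 99th percentile. Recomputed changes of named genes kept direction in 513 cases and changed sign in 26, none called. With centring Nup214 was -0.0195, Kpna1 -0.0135, Nup62 -0.0845, Ranbp10 -0.10 and Nup133 -0.0128, and with quantile normalization Ranbp10 was -0.0712. With cyclic loess Nup188 was -0.0641, Ipo4 -0.0813, Nup214 -0.11, Kpna1 -0.10, Ranbp10 -0.20 and Nup133 -0.0763. With array weights Xpo1 was +0.0146, Nup62 -0.0095 and Nup98 -0.30. With an array left out the range was -0.10 to +0.32 for Nup62, -0.0183 to +0.16 for Ranbp10, -0.41 to +0.18 for Rangap1, -0.83 to +0.37 for Nup155, -0.49 to +0.64 for Kpna1, -0.26 to +0.54 for Xpo4, -1.14 to +0.25 for Xpo1 and -0.91 to +2.08 for Nup98. The causes were not tested. Equal replicate numbers did not pair the pools, with correlations of deviations from -0.02 to 0.08. With the replicate block 0 members passed, 5 had an unadjusted p under 0.05 in the lower direction (2.09% of all probe sets) and the median stayed at -0.22. The filter on dim probe sets left 36 members.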

Other observations

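The palindrome shown in capitals before Nup50 and Xpo5 stood in the windows of 203 of 11869 tested genes with a RefSeq window (1.71%). Their median log2 change was +0.15, against +0.21 over all such genes. Among genes at or above the median signal, 121 held it, with a median of +0.10 against +0.24, and 39.7% of them had a change below 0 against 31.1%. Genes with the GC box had a median of +0.23 in that range, those with CCAAT +0.22 and those with TATAAA +0.24. These are descriptions across genes, which are not independent replicates.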
